A study of Mus musculus with 3 samples.

Results

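The 8 genes described here belong to the canonical Wnt pathway: the ligand gene Wnt10a, the receptor genes Fzd7 and Lrp5, the secreted inhibitor gene Sfrp1, the R-spondin receptor gene Lgr5, the nuclear factor genes Tcf7 and Lef1, and the feedback target gene Axin2. They were taken by name as the pathway's members of interest, with earlier results of these data known. All 8 were among the 20605 genes of the count matrix. The cells came from mammary tumours of 4 C3(1)-Tag mice, an FVB line in which the C3(1) promoter drives simian virus large T antigen in mammary epithelium. The mice were aged 25 to 30 weeks, and each primary tumour measured 20 mm. Freshly isolated tumour pieces of every mouse were set in collagen I, a fibrillar matrix in which such tumour pieces invade, or in Matrigel, a basement membrane gel. Both cultures received DMEM/F12 medium with 2.5 nM FGF2, and cells were profiled 12 hours after plating (day 0), on day 3 and on day 5. Collagen gels were released with collagenase and Matrigel with EDTA on ice, so the release and the matrix cannot be told apart. Each day was 1 pool and 1 library on the 10x Genomics droplet platform, so the day and the library cannot be told apart either. The 4T1 mouse mammary carcinoma line, grown on plastic in RPMI-1640 medium with serum, was carried in every pool as a separate population.

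Wnt proteins are lipid-modified secreted ligands that bind a Frizzled receptor together with an LRP co-receptor. Binding stops the destruction complex, in which Axin proteins are scaffolds, from degrading beta-catenin, which then acts in the nucleus through TCF and LEF factors. Axin2 is itself a target of this signal and limits it, secreted Frizzled-related proteins such as Sfrp1 hold ligands away from receptors, and R-spondins bound by LGR receptors keep Frizzled at the surface. In the mammary gland the pathway is known for its part in ductal growth and in basal cells, and Lgr5 is used there as a marker of some basal cells.

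Start-site sequence is shown for 2 genes: Fzd7, a receptor whose level was lower on day 3 than on day 0 in Matrigel, and Axin2, the pathway's feedback target. RefSeq promoter entries were matched for 4 of the 8 genes (Fzd7, Lef1, Tcf7 and Axin2), which together have 8 windows. The Fzd7 window is chr1:59481897-59482146 on the plus strand and the Axin2 window is chr11:108920099-108920348 on the plus strand, both in GRCm38.p6, and each holds the 250 bases before a RefSeq transcription start. Capitals mark a match to a TCF and LEF type motif.
Fzd7: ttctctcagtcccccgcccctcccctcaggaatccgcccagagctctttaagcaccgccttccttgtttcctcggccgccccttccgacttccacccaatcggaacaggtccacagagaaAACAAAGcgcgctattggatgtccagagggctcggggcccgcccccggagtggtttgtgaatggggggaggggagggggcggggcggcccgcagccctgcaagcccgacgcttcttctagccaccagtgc
Axin2: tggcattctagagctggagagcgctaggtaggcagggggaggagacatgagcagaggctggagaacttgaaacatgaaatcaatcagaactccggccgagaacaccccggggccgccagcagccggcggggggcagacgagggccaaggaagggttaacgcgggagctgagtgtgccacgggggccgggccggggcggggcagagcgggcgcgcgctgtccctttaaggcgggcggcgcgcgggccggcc
The motif was searched as CTTTGAA or CTTTGAT and as CTTTGTA or CTTTGTT on both strands. Fzd7 had 1 match, read as AACAAAG on the plus strand and starting at position -130 from the start, and Axin2 had none. A match was present in 2 of the 8 windows of these genes and in 14.8% of all 32851 windows of this length. A match describes letters in a window and not a bound site.

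Counts of unique molecular identifiers (UMIs) were summed over epithelial tumour cells of 1 mouse, matrix and day, which gave 21 sums of 38 to 1148 cells and 1831436 to 46657709 UMIs. Collagen had 4, 4 and 3 mice on days 0, 3 and 5, and Matrigel had 4, 4 and 2. T and NK-like (29), fibroblast-like (81) and macrophage-like (227) cells were left out, 56 mouse-labelled cells that fell in the cluster of the 4T1 cells (cluster 10, led by Igkc) were kept with the 6914 others, and 11 cell barcodes occurred in 2 pools. Median depth rose from 4330 to 24921 UMIs per cell over the day 0 sums to 52656 to 60985 over the day 5 sums, so shares of positive cells are given after thinning every cell to 5000 UMIs. Cells in 4 clusters led by heat-shock or immediate early genes, or by Gm42418 and Lars2, made up 35.5% of the day 0 cells in collagen and 38.3% in Matrigel, against 1.60 to 6.41% in the other 4 groups; they are called stress clusters here. Levels are given as counts per 1000000 (CPM) of the scaled total of a sum, and values are listed for mice 1, 2, 3 and 4 in that order.

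From day 0 to day 3 in Matrigel, 4 of 8 genes changed (Wnt10a and Sfrp1 higher, Fzd7 and Tcf7 lower), near the share among all 13184 genes tested, of which 39.1% were called. Between days 3 and 5 in Matrigel, 4 of 8 rose (Lgr5, Sfrp1, Tcf7 and Lrp5), where 2.5% of all genes were called in either direction and 1.46% were higher. In collagen, 1 of 8 rose from day 0 to day 3 (Wnt10a; 19.6% of all genes called), and none was called from day 3 to day 5 (1.15% called). Between matrices, Sfrp1 was lower in collagen on day 5 (0.455% of genes called), and none of the 8 was called on day 0 (7.03% called) or day 3 (0.205% called). Where edgeR called none of the 8, the number at an unadjusted p under 0.05 was 1 on day 0, 2 on day 3 and 2 for collagen day 3 to day 5. The share of all genes at that unadjusted p is not given, so these counts have no background to be read against. DESeq2 called 0, 1 and 0 in the same comparisons, where it called 10.7, 1.37 and 3.61% of all genes. A call is an adjusted p under 0.05 in edgeR's quasi-likelihood test over all genes. The median log2 change of the 8 genes from day 3 to day 5 in Matrigel was 1.24, against -0.02 over all genes tested. Leaving out any 1 of the 4 mice left 0 to 2 of those 4 calls; Matrigel day 5 rests on 2 sums of 51 and 38 cells. The Matrigel sums of days 3 and 5 take part in several of these comparisons, which share them as a baseline. The 8 genes were chosen with earlier results of these data known, so their counts and median change are a description, not a test.

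**Figure D1:**
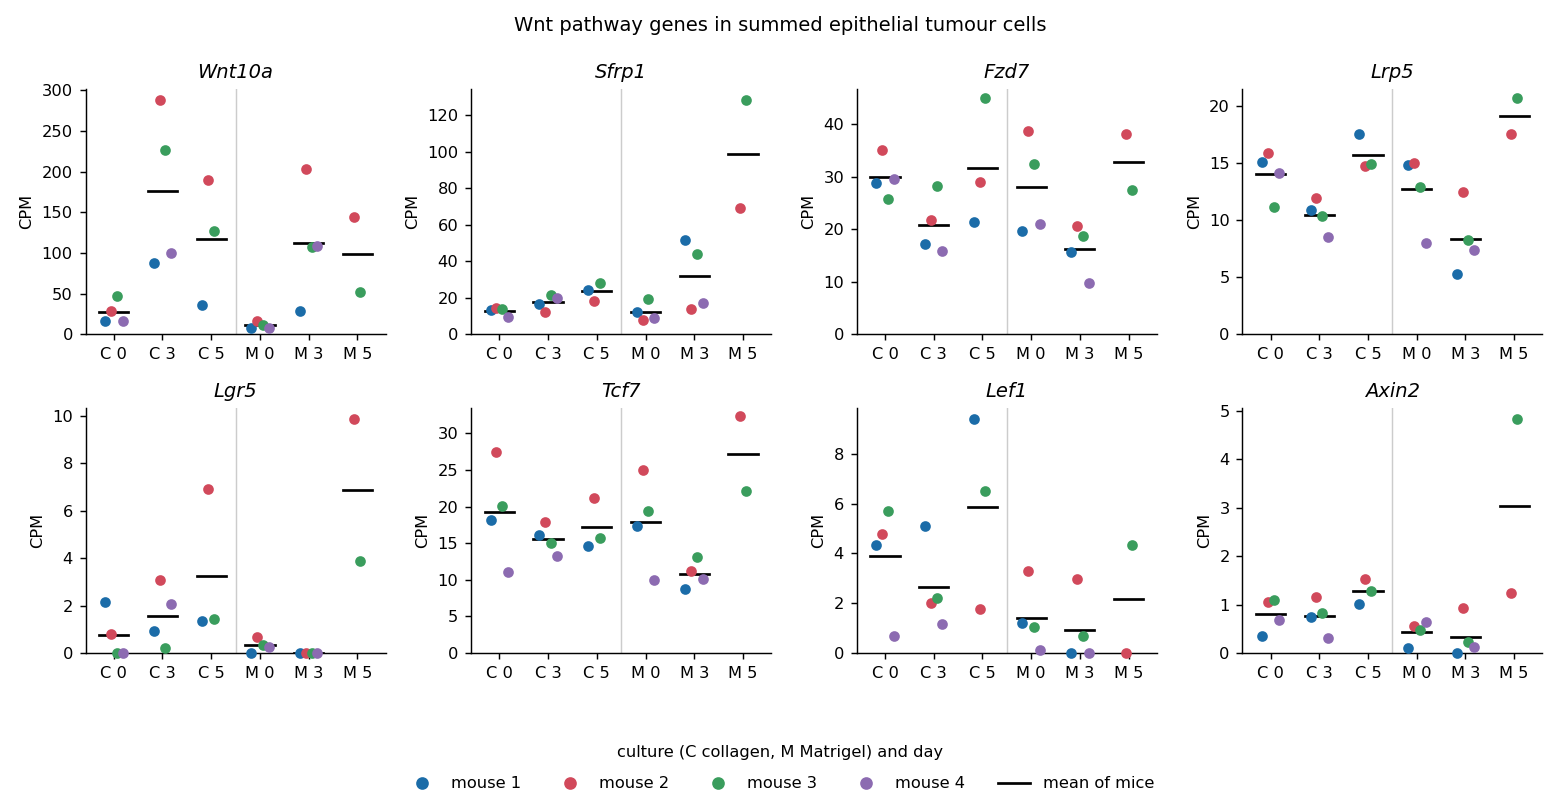
CPM of each gene in the 21 sums (vertical axis, linear, from 0) by culture and day (horizontal axis); each point is 1 mouse and each bar is the mean of the mice. Wnt10a stands higher on day 3 than on day 0 in every mouse of both matrices, and Lgr5 is at 0 in all 4 Matrigel sums of day 3.

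Wnt10a, the ligand gene of the set (chromosome 1, 74791516 to 74804179, GRCm38), rose in both matrices within 3 days of culture. In collagen it was 16.0, 29.1, 47.4 and 16.2 CPM on day 0 and 87.9, 287, 227 and 99.9 CPM on day 3. In Matrigel it was 7.54, 16.6, 11.5 and 8.21 CPM on day 0 and 28.0, 203, 107 and 108 CPM on day 3. The day 0 and day 3 groups did not overlap in either matrix, and mouse 2 was the highest of the 4 on day 3 in both. Wnt10a rose 6.52-fold in collagen (log2 2.71, SE 0.59, adjusted p = 0.00323) and 10.3-fold in Matrigel (log2 3.37, SE 0.61, adjusted p = 0.000285). Leaving out each mouse in turn gave log2 changes of 2.40 to 2.99 in collagen and 3.19 to 3.53 in Matrigel, all called. Without the stress clusters the rise was 2.61 in collagen (adjusted p = 0.00544) and 3.47 in Matrigel (adjusted p = 0.000317), where 18.0% and 37.5% of genes were called. The difference between the matrices in this rise was -0.67 (SE 0.81, adjusted p = 0.842) and was not called (0.0303% of genes called).

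On day 5 Wnt10a was 35.8, 190 and 127 CPM in collagen (mice 1 to 3) and 145 and 52.0 CPM in Matrigel (mice 2 and 3). All 5 pairs of a mouse and a matrix with both days, which come from mice 1 to 3, were lower on day 5. Collagen mouse 1 on day 5 lay below the day 3 range. Neither change was called (log2 -0.58, adjusted p = 0.778 in collagen and -0.19, adjusted p = 0.928 in Matrigel), also with the mouse block (-0.79, adjusted p = 0.0951 and -0.72, adjusted p = 0.208). On day 0 Wnt10a stood higher in collagen than in Matrigel in 4 of 4 mice, with a log2 difference of 1.31 (SE 0.60, adjusted p = 0.191). With the mouse as a block that difference was 1.33 and was called (adjusted p = 0.00705), where 24.3% of all genes were called in that fit. The share of cells with a Wnt10a UMI at 5000 UMIs per cell was 10.5% ± 4.25 (SD, n = 4) in collagen and 5.08% ± 1.61 (SD, n = 4) in Matrigel on day 0. By day 3 the shares were 41.9% ± 14.5 and 28.6% ± 11.1 (SD, n = 4 each). Both rises and the day 0 difference had the smallest exact permutation p that 4 against 4 shares allow (two-sided, unpaired, p = 0.0286 each). None passed adjustment over 56 tests (adjusted p = 0.32 each). The same 4 mice stood on both sides, and this test does not use that pairing. Among 192 macrophage-like cells, which served as the background for free RNA, 1.04% had a Wnt10a UMI, below the shares of every tumour group. Their median depth was 15108 UMIs against 34219 in the epithelial cells. Fibroblast-like cells (5 of 78, 6.41%) and 4T1 cells (18 of 309, 5.83%) were above the Matrigel share of day 0. That share therefore does not stand clear of all other cells in the pools.

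Over the 19 epithelial clusters of at least 50 cells, Wnt10a ran from 8.76 CPM in cluster 6, led by Crct1, Hmox1 and Krt6a, to 383 CPM in cluster 4, led by Ppfibp1, Fgfr1op2 and Med21. Cluster 4 held 7.16% of the epithelial cells and 19.3% of the Wnt10a UMIs, and 91.4% of its cells came from mouse 2. Within that cluster in mouse 2, Wnt10a was 66.8 CPM in collagen on day 0 and 495 CPM on day 3, and 33.8 and 320 CPM on the same days in Matrigel. The higher level on day 3 was thus also present inside this cluster of mouse 2. Clusters were built from the same counts, so levels by cluster are given as a description without a test. Of the 8 genes, Fzd7 alone was among the 2000 variable genes used for clustering.

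**Figure D2:**
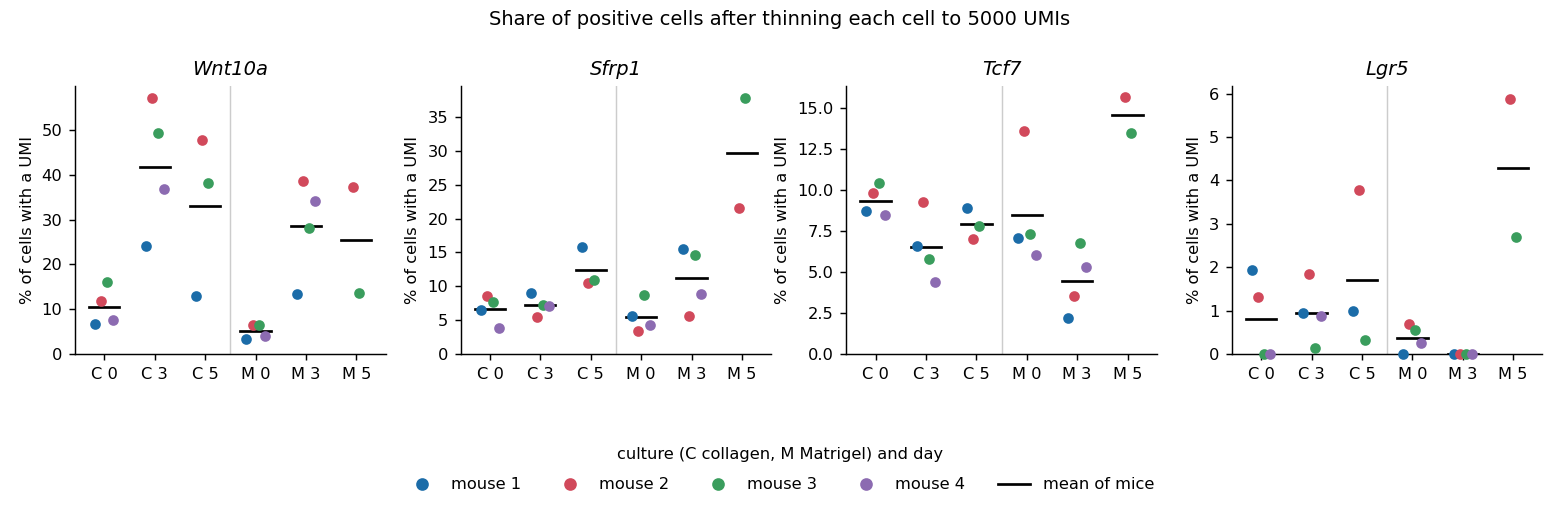
Percent of epithelial cells with at least 1 UMI of a gene after thinning to 5000 UMIs (vertical axis, linear, from 0) by culture and day; each point is 1 mouse and each bar is the mean of the mice. For Wnt10a the day 3 points of both matrices lie above all day 0 points of the same matrix, and for Sfrp1 the 2 Matrigel points of day 5 lie above all others.

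Sfrp1, the secreted Frizzled-related inhibitor (chromosome 8, 23411502 to 23449632), rose step by step in Matrigel and stood highest there on day 5. Its Matrigel levels were 12.4, 7.87, 19.2 and 9.10 CPM on day 0, 51.4, 13.8, 44.2 and 17.2 CPM on day 3, and 68.9 and 128 CPM on day 5 (mice 2 and 3). Day 0 and day 3 overlapped, since mouse 3 on day 0 was above mice 2 and 4 on day 3, but each mouse was higher on day 3 than on day 0. In collagen it was 13.3, 14.3, 13.6 and 9.66 CPM on day 0, 16.5, 12.0, 21.6 and 20.1 CPM on day 3, and 24.4, 18.1 and 28.1 CPM on day 5. The Matrigel rise was 2.50-fold to day 3 (log2 1.32, SE 0.37, adjusted p = 0.00922) and a further 3.22-fold to day 5 (log2 1.69, SE 0.43, adjusted p = 0.041). In collagen neither step was called (log2 0.44, adjusted p = 0.445 and log2 0.44, adjusted p = 0.723). Without mouse 1 the first Matrigel step was 1.04 (adjusted p = 0.108), and the second step was not called without any 1 mouse (adjusted p 0.076 to 0.39).

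On day 5 Sfrp1 was 4.17-fold lower in collagen than in Matrigel (log2 -2.06, SE 0.45, adjusted p = 0.0498), and the 2 groups did not overlap. The mouse block gave -2.09 (adjusted p = 0.00102), where 6.28% of all genes were called in that fit. The plain call lay at the threshold: it was lost without mouse 1, 2 or 3 (adjusted p = 0.246, 0.229 and 0.624) and kept without mouse 4 (adjusted p = 0.0288). On day 3 the difference was -0.81 (SE 0.37, adjusted p = 0.465) and on day 0 it was 0.07 (SE 0.38, adjusted p = 0.948). The change of the matrix difference from day 0 to day 5 was -2.13 (SE 0.59, adjusted p = 0.0763), against -2.20 with the mouse block (adjusted p = 0.00237); 1.19% of all genes were called without the block and 13.7% with it. At equal depth, 12.4% ± 2.97 (SD, n = 3) of collagen cells and 29.7% ± 11.5 (SD, n = 2) of Matrigel cells had an Sfrp1 UMI on day 5. That exact permutation test gave p = 0.2, the smallest that 3 against 2 mice allow. Macrophage-like cells had a share of 0.521%. In the 4T1 cells of the same pools, Sfrp1 was 9.02 CPM on day 3 and 15.4 CPM on day 5; the part of the library in the second Matrigel step was not tested.

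Sfrp1 was highest in 2 clusters: 69.6 CPM in the basal and myoepithelial-like cluster 13, led by Krt5, Acta2 and Tagln, and 61.1 CPM in cluster 8, led by Igfbp5, Trf, Cxcl10 and the milk protein gene Csn1s1. The median over 19 clusters was 14.8 CPM. Cluster 8 held 5.80% of the epithelial cells and 21.2% of the Sfrp1 UMIs, and cluster 13 held 4.35% of cells and 17.9% of the UMIs. The 4 Matrigel sums of highest Sfrp1 level had the 4 highest shares of cells in cluster 8. In Matrigel that share on day 0 was 0.865, 0.302, 0.254 and 0.318%, on day 3 it was 37.5, 5.70, 23.1 and 1.33%, and by day 5 it was 27.5 and 76.3%. In collagen on day 5 it was 18.8, 4.93 and 20.1%. The earlier collagen sums did not follow this order, since collagen mouse 1 on day 0 had 12.3% of its cells in cluster 8 at 13.3 CPM of Sfrp1, while collagen mouse 4 on day 3 had none at 20.1 CPM. Inside cluster 8 the Matrigel level was 103 and 166 CPM on day 5 against 48.8, 23.8 and 52.6 CPM in collagen, so the order of the matrices was the same within the cluster. Without cluster 8 the day 5 difference was -1.45 (adjusted p = 0.377), and without cluster 13 it was -2.29 (adjusted p = 0.0762). Without the 56 cells of the 4T1 cluster it was -2.04 (adjusted p = 0.0648), and the second Matrigel step was 1.67 (adjusted p = 0.0581). The second Matrigel step was 1.38 without cluster 8 (adjusted p = 0.244). Beyond these values, the part of the cluster mix in the differences was not tested.

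**Figure D3:**
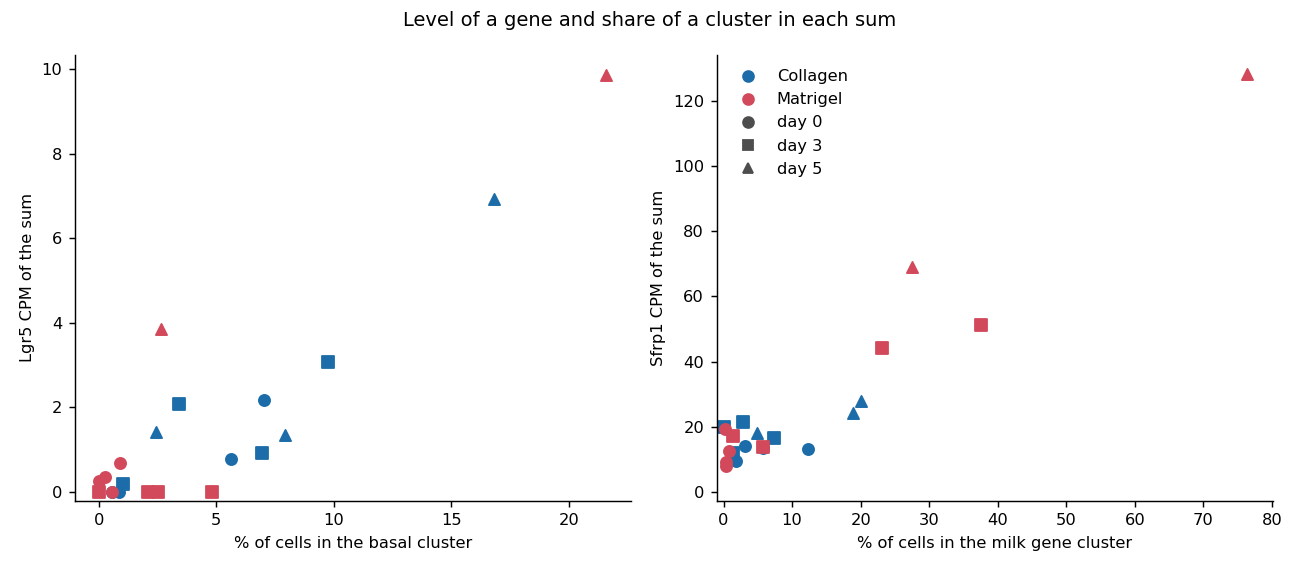
Left, Lgr5 CPM of each of the 21 sums (vertical axis) against the percent of its cells in the basal cluster 13; right, Sfrp1 CPM against the percent of cells in cluster 8, the milk gene cluster. Color gives the matrix and marker shape the day; the 2 Matrigel day 5 sums are the highest in Sfrp1, and the sum with the most basal cluster cells (21.6%) has the highest Lgr5 level (9.85 CPM).

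Fzd7, a Frizzled receptor (chromosome 1, 59482424 to 59486955), was lower on day 3 than on day 0 in Matrigel. Its Matrigel levels were 19.8, 38.7, 32.5 and 21.0 CPM on day 0, 15.8, 20.7, 18.6 and 9.81 CPM on day 3, and 38.2 and 27.5 CPM on day 5. Each mouse was lower on day 3, and the groups overlapped. The fall was 1.74-fold (log2 -0.80, SE 0.28, adjusted p = 0.0311). It was not called without mouse 2, 3 or 4 (adjusted p = 0.13, 0.0707 and 0.087). In collagen it was 28.8, 35.1, 25.9 and 29.7 CPM on day 0 and 17.1, 21.7, 28.3 and 15.9 CPM on day 3 (log2 -0.51, SE 0.27, adjusted p = 0.206). With the mouse block the collagen fall was -0.57 and was called (adjusted p = 0.026), where 37.7% of all genes were called in that fit. Collagen on day 5 gave 21.3, 29.0 and 45.0 CPM.

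The Fzd7 level was highest in stress clusters, at 98.4 CPM in cluster 9 (median depth 2957 UMIs, led by Hspa1a among others) and 55.6 CPM in cluster 18, led by Cyr61, Hspb1 and Dusp1. Inside the stress clusters of day 0 it was 62.2, 111, 63.7 and 82.7 CPM in collagen and 37.9, 66.1, 60.1 and 49.0 CPM in Matrigel. Outside them it was 28.2, 26.4, 20.8 and 22.0 CPM in collagen and 18.2, 35.5, 27.0 and 13.3 CPM in Matrigel. Without the stress clusters, a selection made after these levels were seen, the fall to day 3 was -0.58 in Matrigel (adjusted p = 0.147) and -0.17 in collagen (adjusted p = 0.755), and neither was called. The share of Fzd7-positive cells at equal depth went from 12.8% ± 3.87 to 7.57% ± 2.28 (SD, n = 4 each) in Matrigel (exact permutation p = 0.0857, adjusted p = 0.343), with macrophage-like cells at 3.13%.

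Lrp5, the co-receptor gene (chromosome 19, 3584828 to 3686564), was lower on day 3 and higher on day 5 in Matrigel. Its levels there were 14.8, 15.1, 12.9 and 7.96 CPM on day 0, 5.26, 12.5, 8.29 and 7.36 CPM on day 3, and 17.5 and 20.7 CPM on day 5. Both day 5 sums were above all 4 day 3 sums, and each mouse was lower on day 3 than on day 0. The rise from day 3 to day 5 was 2.23-fold (log2 1.15, SE 0.28, adjusted p = 0.0326). Without mouse 1, 2 or 3 it was not called (log2 0.99 to 1.53, adjusted p = 0.121, 0.168 and 0.442). The fall before it was -0.57 (SE 0.22, adjusted p = 0.0518), and it passed with the mouse block (-0.51, adjusted p = 0.0288; 54.8% of all genes called) and without the stress clusters (-0.71, adjusted p = 0.0149; 37.5% called). Lrp5 in collagen was 15.1, 15.9, 11.2 and 14.2 CPM on day 0, 10.8, 12.0, 10.4 and 8.57 CPM on day 3, and 17.6, 14.7 and 14.9 CPM on day 5. These collagen groups had the same order as in Matrigel without a call (log2 -0.42, adjusted p = 0.195 and 0.57, adjusted p = 0.285). In the 4T1 cells, which were never in a gel, Lrp5 was also lowest in the day 3 pool (5.79 CPM, against 14.8 and 13.9 CPM on days 0 and 5); the part of the library in these changes was not tested. The positive share in collagen went from 6.80% ± 0.269 to 4.95% ± 0.974 (SD, n = 4 each; exact permutation p = 0.0286, adjusted p = 0.32).

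**Figure D4:**
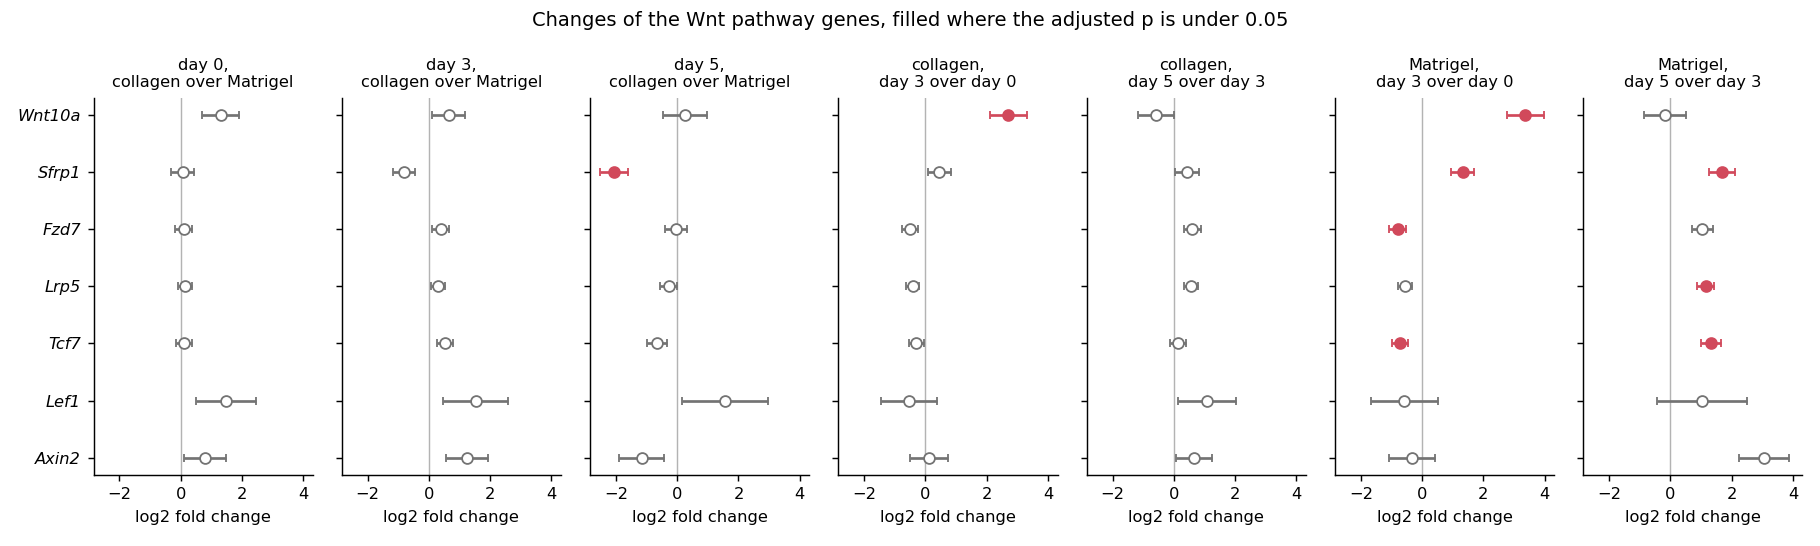
Log2 fold change (horizontal axis) with its standard error for 7 genes in the 7 comparisons; filled red points passed an adjusted p under 0.05 in edgeR and open points did not. Lgr5 is left out of all 7 comparisons, since its Matrigel day 3 group is at 0 and a fold against 0 cannot be read. Its comparisons without that group were also fitted, and none was called. Wnt10a is filled for day 3 over day 0 in both matrices, and Sfrp1 is filled in both Matrigel steps and on day 5 between matrices.

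Lgr5, the R-spondin receptor gene (chromosome 10, 115450311 to 115587780), was rare: 127 of 6970 epithelial cells held 438 UMIs in all, and 62 of those cells had 1 UMI. The cells were concentrated in the basal and myoepithelial-like cluster, which held 93 of the 127 cells (73.2%) and 388 of the 438 UMIs (88.6%) while holding 303 cells (4.35%). In that cluster 30.7% of cells had an Lgr5 UMI, against 0.51% of all other epithelial cells, at like median depths of 32710 and 31723 UMIs. By mouse, 82 of the 127 cells came from mouse 2, which also supplied 66.1% of the basal cluster's cells. The highest count was 35 UMIs, in a collagen cell of mouse 2 on day 5. Another 19 UMIs lay in the milk gene cluster 8. No Lgr5 UMI was found in 192 macrophage-like cells thinned to 5000 UMIs, which allows a share of up to 1.56%. The thinned share over all epithelial cells was 0.946%, below that limit, so it cannot be separated from background by that comparison. Without thinning, macrophage-like cells held 0 Lgr5 UMIs of 3430455, and epithelial cells were at 1.83 CPM.

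In collagen Lgr5 was 2.17, 0.79, 0 and 0 CPM on day 0, 0.92, 3.07, 0.19 and 2.07 CPM on day 3, and 1.36, 6.92 and 1.43 CPM on day 5. In Matrigel it was 0, 0.69, 0.35 and 0.25 CPM on day 0, 0 in all 4 mice on day 3, and 9.85 and 3.86 CPM on day 5. Matrigel on day 3 was the only one of the 6 groups with no Lgr5 UMI in any sum. Its 687 cells allow a share of positive cells of up to 0.437% and a pooled level of up to 0.108 CPM. On day 3 collagen held 165 UMIs, and its pooled level was 15.6-fold that limit of Matrigel (3 counts over the group). This ratio takes the collagen level as exact and UMIs as independent, so it is not a lower limit over cells or mice. Mouse 2 weighed most in the ratio: without that mouse, 28 UMIs remained and the ratio was 4.08-fold, and without mouse 4 it was 6.94-fold. By cells, the collagen share without thinning was 1.85% (mean of 4 mice), against the Matrigel limit of 0.437%. Lgr5 was higher in collagen in 4 of 4 mice, but the call depended on the fit: edgeR gave an adjusted p of 0.184, the mouse block 0.0482 (4.37% of all genes called) and DESeq2 0.0199 (1.37% called). At equal depth the share was 0.949% ± 0.702 (SD, n = 4) in collagen and 0 in Matrigel (exact permutation p = 0.0286, adjusted p = 0.32).

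From day 3 to day 5 in Matrigel Lgr5 rose from 0 to 40 UMIs (adjusted p = 0.0214 in edgeR). The pooled day 5 level was 68.8-fold the day 3 limit of 3 counts, which again is not a lower limit over cells or mice. Without mouse 2 the ratio was 27.7-fold and without mouse 4 it was 30.9-fold. By cells, the share without thinning was 7.20% (mean of 2 mice) on day 5, against the day 3 limit of 0.437%. The 40 UMIs lay in 7 cells, 6 of mouse 2 and 1 of mouse 3. All 32 UMIs of mouse 2 were in the basal cluster, which made up 21.6% of that sum, and all 8 UMIs of mouse 3 were outside it. Without mouse 2, 3 or 4 the rise was not called (adjusted p = 0.3, 0.106 and 0.0564), and without the basal cluster Lgr5 did not pass the expression filter. On day 5 the matrices did not differ by call (adjusted p = 0.781). In collagen no step over time was called (adjusted p = 0.641 and 0.712).

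The share of basal cluster cells and the Lgr5 level did not always go together. The day 0 basal share in collagen was 7.04, 5.64, 0.575 and 0.873%, the day 3 share was 6.94, 9.76, 1.03 and 3.42%, and the day 5 share was 7.92, 16.8 and 2.43%. In Matrigel the day 0 share was 0.576, 0.906, 0.254 and 0% and the day 3 share was 2.08, 2.53, 4.81 and 0%, higher in mice 1 to 3 while their Lgr5 was at 0. On day 5 in Matrigel the share was 21.6% in mouse 2 and 2.63% in mouse 3. The 10 basal cluster cells of Matrigel on day 3 held no Lgr5 UMI, although they held 482207 UMIs in all, which allows a level of up to 6.22 CPM (3 counts, counting error only). In collagen on day 3 the 154 basal cluster cells were at 30.7 CPM when pooled, and at 16.3, 34.6, 9.78 and 85.3 CPM in mice 1 to 4, each above that limit. By cells, 0 of 10 allows a positive share of up to 30.0%, near the 30.7% of the whole basal cluster, so these shares cannot be told apart. The levels of mice 3 and 4 in collagen rest on 3 UMIs in 8 cells and 7 UMIs in 4 cells. The comparison rests on 10 Matrigel cells of 3 mice and was not tested. Lgr5-positive cells also held Sfrp1 more often than other cells: among cells of at least 5000 UMIs, 69.0% of 126 Lgr5 cells had an Sfrp1 UMI, against 30.0% of cells without Lgr5, although the Lgr5 cells were shallower (median 26175 against 34420 UMIs). Both genes were highest in the basal cluster.

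Tcf7, which encodes the nuclear factor TCF1 (chromosome 11, 52252371 to 52283014), fell and then rose in Matrigel. It was 17.4, 25.0, 19.3 and 9.98 CPM on day 0, 8.76, 11.2, 13.1 and 10.1 CPM on day 3, and 32.3 and 22.2 CPM on day 5. Mice 1 to 3 were lower on day 3 than on day 0 and mouse 4 was level, while both day 5 sums were above all day 3 sums. The fall was 1.64-fold (log2 -0.71, SE 0.26, adjusted p = 0.0389) and the rise 2.51-fold (log2 1.33, SE 0.32, adjusted p = 0.0332). Both calls depended on single mice: the fall was lost without mouse 1, 2 or 3 (adjusted p = 0.164, 0.191 and 0.116), and the rise without the same mice (adjusted p = 0.133, 0.408 and 0.224). With sums of at least 10 cells, which adds the 13 cells of mouse 1 on day 5, the rise was 1.07 (adjusted p = 0.069) and the fall -0.71 (adjusted p = 0.0589). Tcf7 in collagen was 18.2, 27.5, 20.1 and 11.0 CPM on day 0, 16.1, 17.9, 15.0 and 13.3 CPM on day 3, and 14.7, 21.1 and 15.7 CPM on day 5, and no step was called (adjusted p = 0.453 and 0.912). At equal depth the Matrigel shares were 8.51% ± 3.45, 4.46% ± 2.00 and 14.6% ± 1.54 on days 0, 3 and 5 (SD, n = 4, 4 and 2), and macrophage-like cells were at 1.56%. T and NK-like cells, which also use Tcf7, had 10 UMIs and 69.4 CPM and were left out of the sums.

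Lef1, the second nuclear factor gene (chromosome 3, 131110471 to 131224356), was low and varied between mice. In collagen it was 4.34, 4.76, 5.72 and 0.69 CPM on day 0, 5.11, 2.02, 2.22 and 1.18 CPM on day 3, and 9.38, 1.75 and 6.49 CPM on day 5. In Matrigel it was 1.20, 3.31, 1.05 and 0.13 CPM on day 0, 0, 2.98, 0.69 and 0 CPM on day 3, and 0 and 4.34 CPM on day 5. On day 0 collagen was the higher matrix in 4 of 4 mice (log2 1.48, SE 0.98, adjusted p = 0.39), and the groups overlapped on every day. No Lef1 comparison was called. The level was highest in the milk gene cluster 8 at 8.33 CPM, and the basal cluster had 0 Lef1-positive cells of 303, which allows a share of up to 0.99%. So Lef1 and Lgr5 were highest in different clusters. The thinned share over all epithelial cells was 1.28%, below the 1.56% that 0 of 192 macrophage-like cells allows, so it cannot be separated from background by that comparison. Without thinning, macrophage-like cells held 0 Lef1 UMIs of 3430455, and epithelial cells were at 2.92 CPM. Fibroblast-like cells were at a like level of 2.94 CPM (6 UMIs), T and NK-like cells held 2 UMIs, and 4T1 cells were at 2.09 CPM. Lef1 was therefore not particular to the epithelial cells.

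Axin2, the feedback target (chromosome 11, 108920349 to 108950783), was at the limit of detection, with 217 UMIs in all epithelial cells. In collagen it was 0.36, 1.06, 1.09 and 0.69 CPM on day 0, 0.75, 1.16, 0.82 and 0.30 CPM on day 3, and 1.02, 1.52 and 1.28 CPM on day 5. In Matrigel it was 0.11, 0.55, 0.47 and 0.63 CPM on day 0, 0, 0.93, 0.23 and 0.13 CPM on day 3, and 1.23 and 4.82 CPM on day 5. The day 5 Matrigel sums rest on 4 and 10 UMIs and lie above all 4 day 3 sums. That rise was 8.29-fold (log2 3.05, SE 0.82) with an adjusted p of 0.0529. Leaving out 1 mouse moved it between log2 1.66 and 4.95, with adjusted p of 0.106 to 0.698. It was called with the mouse block (2.75, adjusted p = 0.0278; 12.7% of all genes called) and by DESeq2 (adjusted p = 0.0236; 4.19% called). Fzd7 was also called in that comparison with the block (0.83, adjusted p = 0.0459). Wnt10a, whose product is a ligand of the pathway, was 6.52-fold and 10.3-fold higher on day 3 than on day 0 in collagen and Matrigel, while Axin2 over the same interval changed by 0.11 (SE 0.63, adjusted p = 0.931) in collagen and -0.34 (SE 0.75, adjusted p = 0.759) in Matrigel. With these standard errors a 2-fold change of Axin2 could not be told from none. The thinned Axin2 share over all epithelial cells was 0.442%, again below the background limit of 1.56%. Without thinning, macrophage-like cells held 0 Axin2 UMIs of 3430455, and epithelial cells were at 0.904 CPM. Fibroblast-like cells were higher, at 4.41 CPM (9 UMIs), while T and NK-like cells held 0 UMIs and 4T1 cells were at 0.041 CPM. Axin2 was therefore not particular to the epithelial cells.

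**Figure D5:**
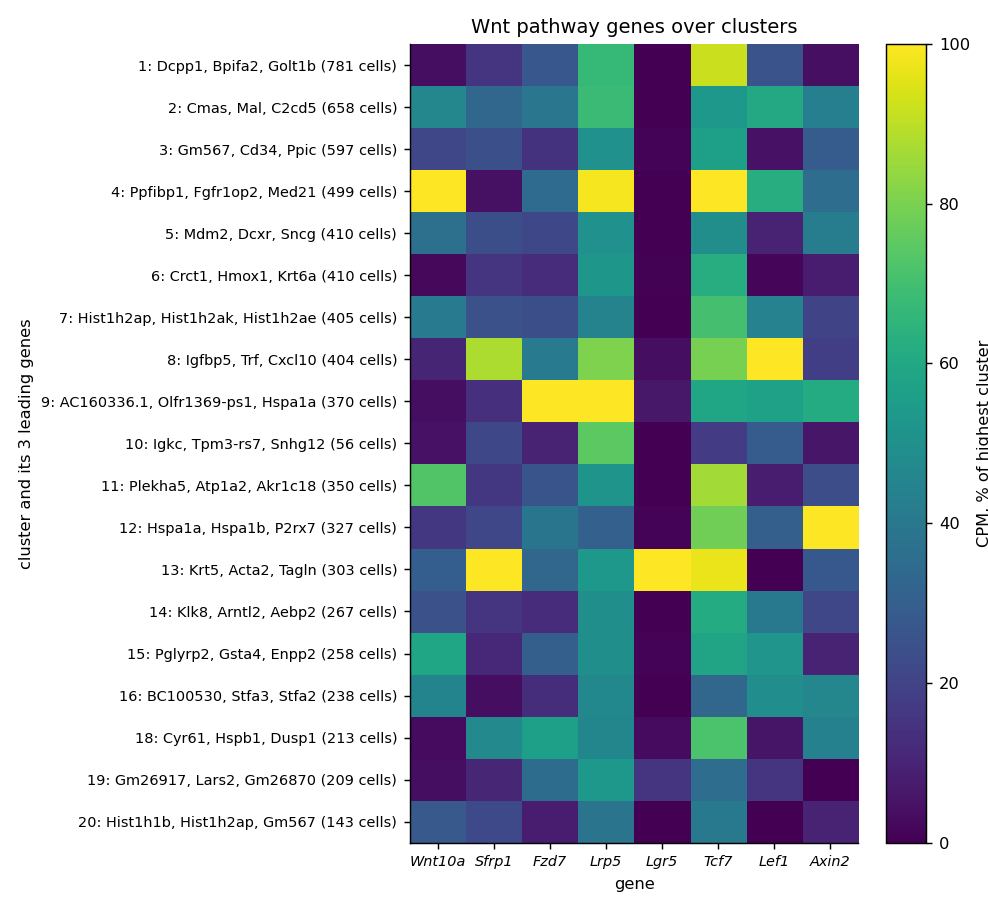
CPM of each gene in the 19 epithelial clusters of at least 50 cells, drawn as a percent of the highest cluster of that gene; rows name the 3 leading genes and the number of cells. Lgr5 is bright in cluster 13 alone, Sfrp1 in clusters 13 and 8, Wnt10a in clusters 4 and 11, and Fzd7 in cluster 9.

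Beyond the 8 genes, 85 further pathway genes were listed by role, again with earlier results of these data known, and 65 were tested. From day 0 to day 3 in Matrigel 5 rose and 15 fell (30.8%, against 39.1% of all genes), and in collagen 4 rose and 7 fell (16.9%, against 19.6%). Neither share stood above that of all genes. Among the relay genes, 1 rose and 6 fell of 10 tested in Matrigel: Dvl2 (-0.76), Dvl3 (-0.67), Gsk3a (-0.46) and Axin1 (-0.52) were the 4 with the smallest p, and each is a log2 change. Dvl proteins carry the signal from Frizzled, and Gsk3a and Axin1 belong to the destruction complex. Of 10 nuclear factor genes, 1 rose and 4 fell there, among them the co-repressor genes Tle3 (-1.18, adjusted p = 0.000109) and Tle4 (-1.85, adjusted p = 0.0109). Pygo2, which binds the beta-catenin complex, fell by 0.38 on the log2 scale, and Ctnnbip1, an inhibitor of beta-catenin, rose by 0.48.

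The secreted inhibitor Notum, an enzyme that removes the lipid from Wnt proteins, rose with Wnt10a in both matrices, by 2.76 in Matrigel (SE 0.87, adjusted p = 0.0174) and 3.37 in collagen (SE 0.89, adjusted p = 0.0114) on the log2 scale. It was the 1 called gene of 6 secreted inhibitors tested in each matrix, where 39.1% of all genes were called in Matrigel and 19.6% in collagen. Porcn, which adds that lipid before release, rose by 1.58 in Matrigel (adjusted p = 0.00478) and 1.10 in collagen (adjusted p = 0.0302). On day 0 Porcn was already higher in collagen (log2 2.05, SE 0.40, adjusted p = 0.00547). In the R-spondin axis, Znrf3, a ubiquitin ligase that removes Frizzled, fell by 1.24 in Matrigel (adjusted p = 0.000346) and by 0.76 in collagen (adjusted p = 0.0224), and Lgr4 fell by 0.55 in Matrigel (adjusted p = 0.0396). Among ligands other than Wnt10a, Wnt7a rose in collagen (2.45, SE 0.61, adjusted p = 0.00772). Wnt8a fell there from 52 UMIs in 7 cells, 36 of them in mouse 4 and 15 in mouse 3, to 1 UMI (adjusted p = 0.0132), a pooled level 289-fold lower with an exact 95% counting interval of 49.6 to 11621. Wnt11 fell in Matrigel (-1.85, SE 0.62, adjusted p = 0.0243).

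Of 15 target genes tested, which include 4 of the 8 genes above, 2 rose and 3 fell in Matrigel from day 0 to day 3, where 39.1% of all genes were called. Myc fell by 1.97 there (SE 0.17, adjusted p = 1.07e-07) and by 1.22 in collagen (adjusted p = 5.91e-05), while Ccnd1 rose by 1.27 in Matrigel (adjusted p = 0.00538). Myc is also an immediate early gene, and the stress clusters led by such genes were mostly cells of day 0; their part in its fall was not tested. Receptors showed 1 call of 14 tested in Matrigel from day 0 to day 3, Fzd1 (-1.01, adjusted p = 0.0116), against 39.1% of all genes called. Between matrices on day 0, 4 of 65 pathway genes were called (6.15%, against 7.03% of all genes): Porcn and Ptk7 (0.65) were higher in collagen, and Myc (-0.74) and Tle3 (-0.75) were lower. With the mouse block 13 were called on day 0 (20.0%, against 24.3%). On days 3 and 5 edgeR called 0 of 65 between matrices, with 6 and 11 at an unadjusted p under 0.05 and 1 and 3 called by DESeq2, which called 1.37 and 2.0% of all genes; the block called 2 and 6 (3.08 and 9.23%, against 4.37 and 6.28% of all genes). From day 3 to day 5 edgeR without the block called 0 of 65 in each matrix, with 6 in collagen and 16 in Matrigel at an unadjusted p under 0.05. DESeq2 called 4 and 4, where it called 3.61 and 4.19% of all genes. The share of all genes at an unadjusted p under 0.05 is not given, so counts at that level have no background to be read against. With the mouse block, 13 rose and 3 fell of the 65 in that Matrigel step (24.6%, against 12.7% of all genes), and 8 rose and 0 fell in the same collagen step (12.3%, against 10.5%). The block also called 22 in collagen and 34 in Matrigel from day 0 to day 3 (33.8 and 52.3%, against 37.7 and 54.8%). For the change of the matrix difference from day 0, it called 4 to day 3 and 11 to day 5 (6.15 and 16.9%, against 5.34 and 13.7%), and edgeR without it called 0 and 1, the cell surface gene Cd44 (1.63, adjusted p = 0.0379).

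Some genes followed a member closely over the 21 sums, by Pearson correlation of log2(CPM + 1) among 6241 genes of at least 20 mean CPM. The closest to Wnt10a were Cops6 (0.928) and Ndufb3 (0.92), and to Sfrp1 they were Mfge8 (0.893), Echs1 (0.892) and Rassf3 (0.888). For Lgr5 they were Mitd1 (0.727), Rcbtb2 (0.715) and Id4 (0.714), and for Tcf7 Lamc1 (0.807), Pla2g7 (0.778) and Lhfpl2 (0.756). Lef1 was nearest to Frmd4a (0.858), Grina (0.823) and Zeb2 (0.805), and Lrp5 to Hnrnph1 (0.865), Ctdnep1 (0.817) and mt-Nd3 (0.797). Fzd7 was nearest to Trove2 (0.792), Golph3 (0.767) and Twsg1 (0.763), and Axin2 to Ncstn (0.766), Nbr1 (0.754) and Rnft1 (0.746). Among the 8 genes themselves the highest value was 0.731, between Tcf7 and Lrp5, and Wnt10a and Tcf7 were at 0.039. The sums share mice and libraries, so these values are a description.

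The 4T1 line gave 1 sum in each pool, without replicates, and intervals there are exact Poisson limits at 95% that cover counting error only. Lgr5 had 0 UMIs in all 3 pools, in 98, 196 and 19 cells, which allows up to 0.371, 0.22 and 1.13 CPM (3 counts). Wnt10a was 11.5 (9.29 to 14.1), 11.4 (9.71 to 13.4) and 9.75 (6.37 to 14.3) CPM on days 0, 3 and 5. These intervals overlapped between the 3 pools; the line has 1 sum a pool, and the part of the library in the tumour cells' Wnt10a change was not tested. Sfrp1 was 15.6 (13.0 to 18.6), 9.02 (7.49 to 10.8) and 15.4 (11.0 to 20.9) CPM. Lrp5 was 14.8 (12.3 to 17.8), 5.79 (4.59 to 7.22) and 13.9 (9.77 to 19.1) CPM. Sfrp1 and Lrp5 of the line were thus lower in the day 3 pool than in the day 0 pool beyond counting error. Tcf7 was 2.60, 2.13 and 3.38 CPM and Fzd7 6.43, 5.50 and 8.25 CPM, each with intervals that overlapped between pools.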

How the data were processed

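Droplet single-cell RNA-seq of 3 pools was analysed. Per the submitters' processing notes the tools included Scanpy 1.4.4 and Cell Ranger 3.0.2, and the build was GRCm38/mm10, without roles. The deposited matrix of the authors gives UMI counts, whole in all 39668312 entries of 7620 cells. The authors' deposited mitochondrial fraction per cell was not used. A cell's mouse, matrix and day come from the deposited annotation. Its first time point, D1, was matched to the day 0 pool by inference, since the other 2 match by name. The annotation's batch column, which joins its first 2 time points, was not used. Unused columns of per-sample values numbered 0.

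Cells were clustered (2000 variable genes, 30 components, 15 neighbours, Leiden resolution 1; Scanpy 1.11.5, leidenalg 0.10.2) into 24 clusters, named from marker lists, and no doublet caller was run. Sums of at least 20 epithelial cells were formed for each mouse in each matrix and day. After edgeR's filter, 13184 genes entered 1 fit of 6 groups (edgeR 4.0.16, TMM, quasi-likelihood F test, Benjamini-Hochberg in each of 9 comparisons), tested on simulated data. The labels give the same 4 mice for both matrices and all days, which pairs the sums: deviations from group means correlated at a median of 0.304 (0.0723 to 0.685) within a mouse and -0.108 between mice, with 21 of 21 sums closest to their own mouse. Replicate sums differed by 8.01 to 70.7 times their sampling noise (chi-square over its degrees of freedom, 28 pairs).

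For positive shares cells were thinned to 5000 UMIs, leaving out shallower ones (collagen 226, 29 and 6, Matrigel 328, 38 and 2 on days 0, 3 and 5). Shares of mice were compared by two-sided exact permutation, which was unpaired although the groups share mice. Limits for a count of 0 use 3 counts. Coordinates are from GENCODE vM21 on GRCm38. Named genes were the 8 members, up to 4 called genes of smallest p in each of 8 role lists, and the 3 genes most correlated with each member, of which 1 is not reported here. The members and lists were chosen with earlier results of these data known. Alternatives were DESeq2, another scaling, no filter, the mouse block, each mouse left out, other cell selections and other depths; leaving out the basal, milk gene and stress clusters was chosen after seeing the data.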

Additional observations from a re-analysis of the deposited data

Results flagged for a closer look

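In groups of 4 mice, 3 values of 2 sums stood apart from the other 3 mice by Dixon's criterion at 95%, out of 64 groups checked; chance alone gives about 1 in 20. The share of thinned cells with an Axin2 UMI was 0.704% in mouse 2 of Matrigel on day 3 (1 of 142 cells), and 0 in the other 3 mice. The share with a Lef1 UMI in the same sum was also 0.704% (1 cell), and again 0 in the other 3. Where the other 3 mice are at 0, any 1 positive cell meets the criterion. For such shares the rate of 1 in 20 does not hold, and these 2 flags carry no weight. For Tcf7 the share was 13.6% in mouse 2 of Matrigel on day 0, against 6.01 to 7.3% in the others.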

How the results depend on the processing

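Wnt10a kept its call from day 0 to day 3 in both matrices under each alternative tried, mice left out included. With the replicate block (mouse), 1 of the 8 genes was called on day 0 and 1 on day 3. Without it both counts were 0. From day 0 to day 3 in collagen the block called 2, against 1 without it. In these comparisons the block called 24.3, 4.37 and 37.7% of all genes. For the change of the matrix difference to day 5 it called 1 against 0, and 13.7% of all genes. Apart from these and the added calls of Lrp5, Fzd7 and Axin2 given in the report, the block changed no other call. DESeq2 called 1 on day 3 (1.37% of all genes called) and 1 for that change of the matrix difference, which also had 1 without the stress clusters. The day 5 count fell from 1 to 0 with no filter, without the 4T1 cluster, without the basal cluster, without the milk gene cluster and in a fit of the 2 groups alone, and ranged from 0 to 1 with each mouse left out. The Matrigel count from day 0 to day 3 was 2 to 4 with each mouse left out. From day 3 to day 5 in Matrigel, the count of 4 became 2 with no filter, 2 without the basal cluster, 1 without the milk gene cluster and 0 to 2 with each mouse left out; where 1 sum remained in a group, it was assumed to vary like the others. The cause was not tested. Counts in this paragraph without a share of all genes beside them have no background to be read against. Some share differences turned with depth: without thinning, Fzd7 from day 0 to day 3 was 7.20 points in collagen and 1.79 in Matrigel, Tcf7 4.26 and Lrp5 4.53 in Matrigel, all higher on day 3, where deeper cells of day 3 were kept at full depth. Tcf7 was 0.683 points at 2000 UMIs. Counting cells of at least 2 UMIs, Fzd7 and Lrp5 from day 3 to day 5 in Matrigel were -1.15 and -0.176 points. Axin2, Lef1 and Lgr5 shares lie near the limit that depth allows, so small differences in them were not detectable.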
